A study of Mus musculus with 63 samples.

Results

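RNA-Seq counts of 7 genes that position epithelial cells along the crypt-villus axis are described here. They comprise 4 Eph receptors, *Ephb2*, *Ephb3*, *Ephb4* and *Epha2*, and 3 ephrin ligands, *Efnb1*, *Efnb2* and *Efna1*, found by their gene symbol among 54752 genes in 4 tables of counts. The libraries came from organoids of the mouse intestine and from intestinal epithelial cells (IECs) in which the Mediator kinases CDK8 and CDK19 had been removed, and the question for these genes was how crypt receptors and villus ligands stood in each knockout or 4-OHT comparison. All 57 libraries used fall into 19 groups of 3.

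The strain was C57BL/6 throughout. In the *VillinCreERT2* transgene the Villin promoter drives a tamoxifen-inducible Cre in the intestinal epithelium only, whereas *Cdk19* was deleted in the germline. Organoids of 5 groups were collected 7 days after 100 nM 4-OHT given for 24 h. They were *VillinCreERT2* and C57BL/6 as controls, *VillinCreERT2*/*Cdk8fl/fl* (CDK8iIEC-KO), *Cdk8fl/fl*/*Cdk19-/-*, which keeps CDK8, and *VillinCreERT2*/*Cdk8fl/fl*/*Cdk19-/-* (CDK8iIEC-KO/*Cdk19-/-*), which lacks both kinases. In a time course, the last genotype received 0.001% EtOH or 100 nM 4-OHT and was collected at 3, 5, 7 and 10 days, and both arms therefore lack CDK19. A further pair of groups of that genotype was kept in *Wnt3*-conditioned medium (*Wnt3*-CM) for 10 days. Organoids carrying *VillinCreERT2*, *Cdk8fl/fl* and a kinase-dead CDK19 allele over a null allele (*Cdk19D173A/-*) were collected 7 days after EtOH or 4-OHT. In the time course and in both of these sets, EtOH and 4-OHT were given at the same doses for 24 h. IECs came from *VillinCreERT2* and CDK8iIEC-KO/*Cdk19-/-* mice given 5 daily injections of tamoxifen at 80 mg/kg and were isolated 14 days after the last one, with 1 mouse per library. Each organoid group carries a single line number, so a genotype and its line cannot be told apart, and among the libraries used here no line without a floxed allele was set with 4-OHT against EtOH, so that in comparisons of 4-OHT with EtOH the agent itself and deletion of *Cdk8* cannot be told apart. In the 5 groups at day 7 the controls had received 4-OHT too. The labels do not say that triplicates of organoids came from separate cultures, and p-values then measure the spread between these samples only.

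Eph receptors are receptor tyrosine kinases, and ephrins are ligands anchored in the membrane of the neighbouring cell. Binding signals into both cells and mostly makes them repel each other, which keeps populations of cells apart. In the intestinal crypt *Ephb2* and *Ephb3* are known as genes switched on by Wnt signalling through TCF4 and β-catenin, while the ligands *Efnb1* and *Efnb2* are made by the differentiating cells above. *Ephb3* is carried by Paneth cells and is needed to hold them at the crypt base. *Ephb4* binds ephrin-B2, and the pair is also known from veins and arteries. *Epha2* binds the GPI-anchored ephrin-A1, encoded by *Efna1*.

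On GRCm38 (GENCODE vM21) the receptors lie at chr4:136647539-136835988, minus strand (*Ephb2*, ENSMUSG00000028664.14), chr16:21204755-21223305, plus strand (*Ephb3*, ENSMUSG00000005958.15), chr5:137350109-137378669, plus strand (*Ephb4*, ENSMUSG00000029710.15) and chr4:141301240-141329384, plus strand (*Epha2*, ENSMUSG00000006445.3). The ligands lie at chrX:99136130-99148991, plus strand (*Efnb1*, ENSMUSG00000031217.8), chr8:8617434-8661242, minus strand (*Efnb2*, ENSMUSG00000001300.16) and chr3:89271733-89281142, minus strand (*Efna1*, ENSMUSG00000027954.9). *Ephb4* overlaps *Zan* on the other strand, which held 80 to 879 counts per library against 608 to 4276 on *Ephb4*. The sources used here do not say whether counting used the strand, so reads of these 2 genes may be mixed where they overlap. *Efnb2* overlaps 3 further annotated genes with at most 23 counts in any library.

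Promoters of 4 members that moved with the knockout are shown, the pair of Wnt-dependent crypt receptors, the receptor of *Efna1* and the ligand that rose most often. Each is the 250 bases before the RefSeq start on GRCm38.p6, read 5′ to 3′ on the gene's own strand, at chr4:136836013-136836262 (*Ephb2*), chr16:21204545-21204794 (*Ephb3*), chr4:141300971-141301220 (*Epha2*) and chr8:8661243-8661492 (*Efnb2*). Capitals mark matches on either strand to an E-box, CANNTG, the core bound by basic helix-loop-helix factors, or to a TCF/LEF core, written as CTTTGA or CTTTGT.
Ephb2: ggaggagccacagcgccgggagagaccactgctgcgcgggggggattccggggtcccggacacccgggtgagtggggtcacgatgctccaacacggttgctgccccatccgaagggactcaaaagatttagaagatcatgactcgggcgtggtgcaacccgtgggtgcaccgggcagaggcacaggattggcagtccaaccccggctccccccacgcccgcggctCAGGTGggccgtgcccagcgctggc
Ephb3: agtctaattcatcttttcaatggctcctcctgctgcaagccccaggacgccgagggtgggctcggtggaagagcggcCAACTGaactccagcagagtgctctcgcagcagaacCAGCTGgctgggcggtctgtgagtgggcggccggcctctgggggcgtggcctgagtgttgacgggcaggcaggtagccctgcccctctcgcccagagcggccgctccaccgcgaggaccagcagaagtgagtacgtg
Epha2: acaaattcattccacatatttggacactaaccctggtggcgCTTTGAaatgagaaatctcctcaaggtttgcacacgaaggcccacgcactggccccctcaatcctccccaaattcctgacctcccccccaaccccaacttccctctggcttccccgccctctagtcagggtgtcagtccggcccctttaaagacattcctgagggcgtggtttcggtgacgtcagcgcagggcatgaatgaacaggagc
Efnb2: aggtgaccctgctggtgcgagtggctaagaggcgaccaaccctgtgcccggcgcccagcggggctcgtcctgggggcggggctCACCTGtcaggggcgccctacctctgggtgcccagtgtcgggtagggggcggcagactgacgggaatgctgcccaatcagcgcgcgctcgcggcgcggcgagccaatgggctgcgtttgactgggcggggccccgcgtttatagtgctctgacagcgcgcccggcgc
The match in *Ephb2* is CAGGTG, 25 bases before the start, and those in *Ephb3* are CAACTG and, 137 bases before the start, CAGCTG. The TCF/LEF core of *Epha2* is CTTTGA, 209 bases before the start, and *Efnb2* holds CACCTG at 167 bases. Of the other members, *Ephb4* has CACATG at 243 bases and *Efnb1* and *Efna1* have neither motif in this window. All 7 members had a RefSeq promoter, and *Efna1* had 2. Among 32851 promoters of the same length 66.2% held an E-box, 13% held CAGCTG and 27.6% a TCF/LEF core, so these matches are common and serve as a description only.

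Total counts ran from 15485959 to 32909565 per library, and the members had between 99 (*Ephb3*) and 11755 (*Efnb2*) counts in each library. All 7 passed the filter on low counts in every comparison. In organoids epithelium markers summed to 7682 to 14781 CPM and immune markers to at most 2.29 CPM per library. Mesenchyme markers summed to at most 47.3 CPM (EtOH, day 7) and endothelium markers to at most 21.4 CPM (4-OHT, day 3). The targeted genes changed little over their whole length. The log2 fold change of *Cdk8* was 0.09 in CDK8iIEC-KO organoids and -0.12 (day 7) to 0.14 (*Wnt3*-CM) with 4-OHT, and that of *Cdk19* was -0.28 in *Cdk8fl/fl*/*Cdk19-/-* organoids. In the combined loss *Cdk8* was -0.19 against *VillinCreERT2* and 0.22 against C57BL/6, and *Cdk19* was -0.02 and -0.16. The counts are sums over all exons, including any that the deletions leave in the transcript, so they do not check the genotypes, which are taken from the labels. Levels are given as CPM, the count scaled to the size of its library, and, between genes, as CPM per kb of annotated exon. Genes rose or fell here where the adjusted p of edgeR's quasi-likelihood test, taken over all genes tested, was under 0.05, and differentially expressed genes (DEGs) also had a fold change over 1.5. Values in brackets after a log2 fold change are standard errors, and values after ± are SDs over the 3 libraries of a group. In these bulk samples fewer cells of a type and less RNA per cell cannot be told apart.

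In *VillinCreERT2* organoids the ligands stood above the receptors per kb of exon. *Efna1* led with 56.5 ± 0.799 CPM per kb, followed by *Efnb2* with 36.6 ± 2.27, *Efnb1* with 34.4 ± 0.912 and *Ephb4* with 29.0 ± 1.21. *Efnb2* and *Efnb1*, next to each other in this order, lay within their spread. The remaining receptors stood lower, *Ephb2* at 10.7 ± 0.150, *Epha2* at 7.31 ± 0.772 and *Ephb3* at 4.07 ± 0.326 CPM per kb. The order was not the same everywhere. In EtOH organoids at day 3 of the time course *Ephb4* (46.0 ± 3.31) stood above *Efnb2* (24.4 ± 1.83). IECs of *VillinCreERT2* mice kept *Ephb3* lowest (1.85 ± 0.294) but had *Efnb1* first (39.8 ± 1.18) and *Epha2* as the third (21.0 ± 4.60), between *Efna1* (26.9 ± 0.298) and *Ephb4* (16.1 ± 1.33). There *Epha2* and *Ephb4*, and *Ephb4* and *Efnb2* (14.8 ± 1.71), differed by less than their summed SDs.

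Loss of both kinases lowered the 3 EphB receptors in organoids at day 7, whichever group served as control. *Ephb3* moved most, to nearly the same low level in each library. The ligand *Efnb1* differed by at most 0.10 on the log2 scale from any of these controls. *Epha2*, *Efnb2* and *Efna1* gave another answer with each control line.

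*Ephb2* stood at 137, 133 and 135 CPM in *VillinCreERT2*, 146, 150.0 and 141 in C57BL/6, 141, 141 and 146 in *Cdk8fl/fl*/*Cdk19-/-* and 101, 107 and 105 in CDK8iIEC-KO/*Cdk19-/-* organoids. The libraries without both kinases were lower than every other one. The log2 fold change was -0.37 (0.05) against *VillinCreERT2* (adjusted p = 2.28e-06), -0.48 (0.05) against C57BL/6 (3.51e-08) and -0.45 (0.05) against *Cdk8fl/fl*/*Cdk19-/-* (2.45e-07).

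*Ephb3* had 28.2, 24.5 and 28.3 CPM in *VillinCreERT2*, 29.6, 30.5 and 28.4 in C57BL/6, 23.8, 22.0 and 27.5 in *Cdk8fl/fl*/*Cdk19-/-* and 15.7 CPM in each CDK8iIEC-KO/*Cdk19-/-* library. It was a DEG against all 3 groups, 1.72-fold lower than *VillinCreERT2* (log2 fold change -0.78 (0.09), adjusted p = 8.21e-08) and 1.88-fold lower than C57BL/6 (-0.91 (0.09), 6.09e-09). Against *Cdk8fl/fl*/*Cdk19-/-* the difference was -0.64 (0.09) with adjusted p = 5.36e-06, and without replicate 3 of that group it was -0.54, under the fold cutoff. *Ephb4* fell less, from 136, 129 and 139.7 CPM in *VillinCreERT2* and 139, 139 and 140.1 in C57BL/6 to 109, 101 and 106. The changes of *Ephb4* were -0.36 (0.05) and -0.40 (0.05), with adjusted p = 5.2e-06 and 8.41e-07. *Zan*, which shares its locus, rose against *VillinCreERT2* (0.51, adjusted p = 0.000121) and was 0.24 higher than C57BL/6 (0.0522).

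*Epha2* showed how far the control lines matter. Its values were 33.4, 38.1 and 31.0 CPM in *VillinCreERT2* but 19.7, 23.7 and 19.6 in C57BL/6, which carries no knockout either, and 22.6, 25.4 and 16.6 without both kinases. Hence it was 1.59-fold lower than *VillinCreERT2* (-0.67 (0.11), adjusted p = 2.88e-05) and level with C57BL/6 (0.03 (0.12), 0.836). The control lines themselves differed by -0.70 (0.11) with adjusted p = 1.22e-05. Without replicate 3 of the combined loss the difference from *VillinCreERT2* was -0.50 on the log2 scale, and without replicate 2 of *VillinCreERT2* it was -0.58, both under the fold cutoff.

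Among the ligands *Efna1*, the partner of *Epha2*, read 103, 105 and 102 CPM in *VillinCreERT2*, 163, 196 and 193 in C57BL/6 and 162, 157 and 144 without both kinases. It rose 1.49-fold against the first control (0.58 (0.07), adjusted p = 1.75e-07) and fell against the second (-0.26 (0.07), 0.00337). *Efnb2* did the reverse, with 235, 251 and 266 CPM in *VillinCreERT2*, 176, 166 and 154 in C57BL/6 and 237, 214 and 221 in CDK8iIEC-KO/*Cdk19-/-*. It fell by 0.16 (0.06) against *VillinCreERT2*, with overlapping libraries (adjusted p = 0.0211), and rose by 0.44 (0.06) against C57BL/6 (8.45e-07). That fall was lost without any 1 of 3 libraries, with adjusted p = 0.106 and 0.0841 without replicates 2 and 3 of the combined loss and 0.135 without replicate 3 of *VillinCreERT2*. With both control lines averaged it turned to 0.14 with adjusted p = 0.0293, and with upper quartile normalization the fall was lost (0.0901). *Efnb1* had 117, 122 and 117, then 104, 122 and 110.5, and 123, 129 and 108 CPM in these groups and passed neither test (adjusted p = 0.804 and 0.188), although it passed against C57BL/6 without replicate 2 of that group (0.0427) or replicate 3 of the combined loss (0.0152). Against *Cdk8fl/fl*/*Cdk19-/-*, which shares the loss of CDK19, *Epha2* fell by 0.36 (0.11) with adjusted p = 0.0153, *Efnb2* rose by 0.24 (0.06) with 0.00203, and *Efna1* was 0.09 lower (0.365). The fall of *Epha2* was lost without replicate 3 of either group (0.0558 and 0.112).

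Against *VillinCreERT2*, 6 of 7 members changed, beside 52.9% of all genes, 2 of 7 were DEGs, beside 19.4%, and 5 of 7 had groups that did not overlap, beside 59.8%. Against C57BL/6 the counts were 5 of 7 changed, beside 47.8%, 1 DEG, beside 18.1%, and 5 without overlap, beside 51.6%. Against *Cdk8fl/fl*/*Cdk19-/-* 5 changed, beside 34.6%, 1 was a DEG, beside 10.6%, and 5 did not overlap, beside 48.0%. Between the control lines themselves 3 of 7 members changed and 3 were DEGs (*Epha2*, *Efnb2* and *Efna1*), beside 61.3% and 26.4% of genes, but with upper quartile normalization 6 of 7 changed. These comparisons share the CDK8iIEC-KO/*Cdk19-/-* libraries. The columns of *VillinCreERT2* and CDK8iIEC-KO follow another naming scheme than those of the other 3 groups, and only the comparisons with C57BL/6 and *Cdk8fl/fl*/*Cdk19-/-* stay within 1 scheme.

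**Figure D1:**
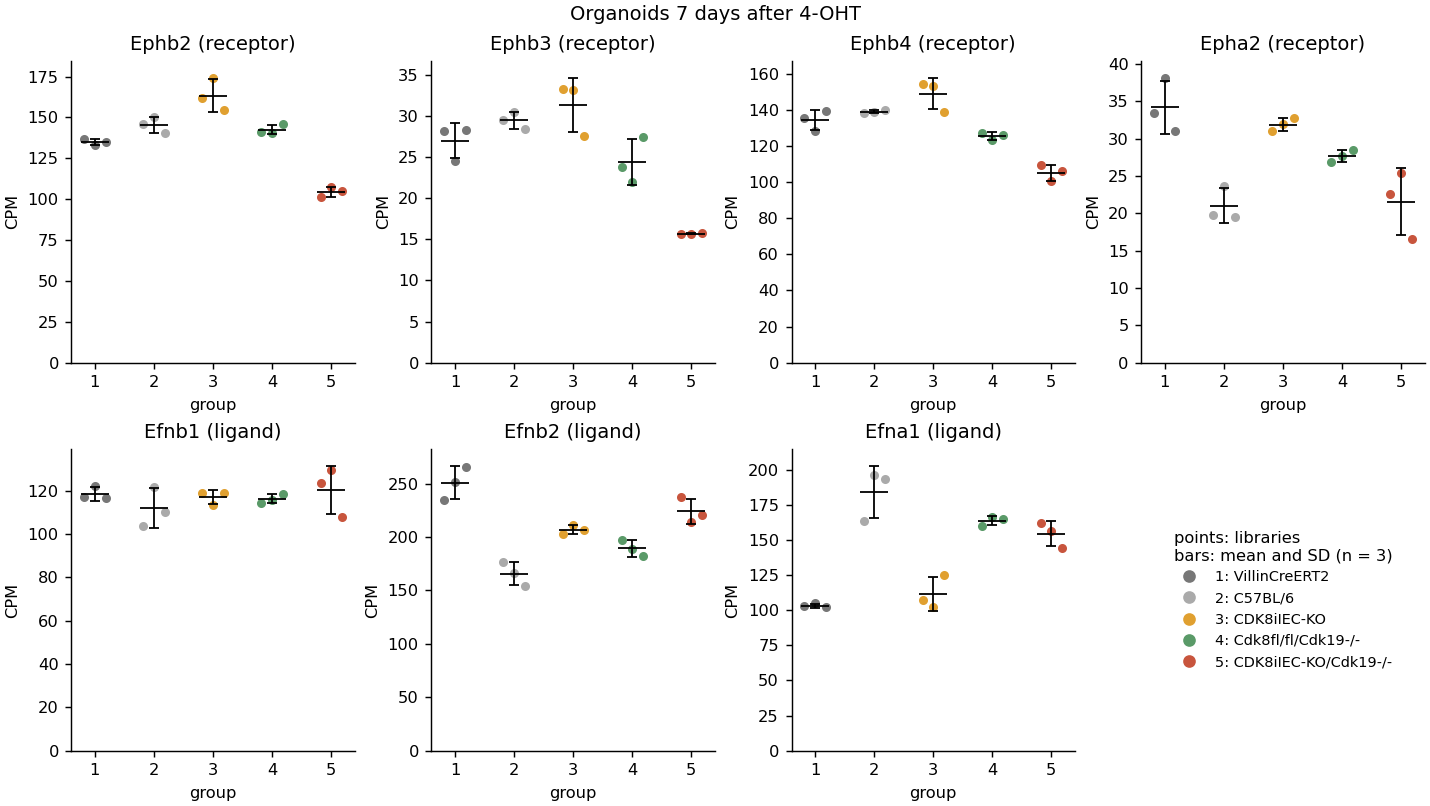
Level in CPM (y axis) of each member in every library of the 5 groups of organoids 7 days after 4-OHT, with the mean and SD of 3 libraries as bars. *Ephb2*, *Ephb3* and *Ephb4* are lowest in group 5, while *Epha2*, *Efnb2* and *Efna1* differ between the control groups 1 and 2.

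Loss of CDK8 alone did not lower the crypt receptors. In CDK8iIEC-KO organoids *Ephb2* had 162, 174 and 154 CPM, above every *VillinCreERT2* library, and rose by 0.28 (0.05) on the log2 scale (adjusted p = 0.000223). *Ephb4* was higher by 0.15 (0.05) with adjusted p = 0.0398, a call lost without any 1 of 4 libraries (without replicate 1 or 2 of either group, adjusted p = 0.0710 to 0.182), and *Ephb3* by 0.21 (0.08) with 0.0539 (0.0102 without replicate 3 of CDK8iIEC-KO). *Efnb2* fell from 235, 251 and 266 to 203, 212 and 207 CPM (-0.28 (0.06), 0.000689). With DESeq2, with no filter or with only the groups compared the call of *Ephb4* was lost too (0.0617 to 0.0848). *Zan* rose here as well (0.41, 0.00273), and its part in the value of *Ephb4* was not tested. Hence 3 of 7 members changed, beside 30.3% of genes, and 0 of 7 were DEGs, beside 7.23%. In the same libraries 9 of 10 proliferation genes and 4 of 10 markers of crypt base columnar cells rose with none down. Of 11 markers of villus enterocytes 8 fell and none rose, with a summed level of 14001 to 16881 CPM in *VillinCreERT2* and 9697 to 11210 in CDK8iIEC-KO organoids. The part of these cells in the members' values was not tested.

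Loss of CDK19 alone, set against C57BL/6, changed 3 of 7 members, beside 15.5% of genes, and none of the 7 was a DEG, beside 5.25%. *Ephb2* differed by -0.03 (adjusted p = 0.767). *Ephb3* was lower by 0.27 (0.09), *Epha2* higher by 0.40 (0.11) and *Efnb2* higher by 0.19 (0.06), with adjusted p = 0.0371, 0.0203 and 0.0258. Each of these calls was lost in 3 or 4 of 6 fits that leave out 1 library, with adjusted p up to 0.211, 0.104 and 0.120. With only the groups compared *Ephb3* and *Efnb2* did not pass (0.0576 and 0.0536), nor did *Ephb3* with DESeq2 (0.0585). The libraries that decided *Ephb3* were replicates 2 and 3 of C57BL/6 and 1 and 2 of *Cdk8fl/fl*/*Cdk19-/-*. For *Epha2* they were replicates 1 and 3 of C57BL/6 and 3 of *Cdk8fl/fl*/*Cdk19-/-*, and for *Efnb2* they were the same 4 libraries as for *Ephb3*. In these libraries 7 of 10 markers of crypt base columnar cells fell and 1 rose, with a summed mean of 2631 CPM in C57BL/6 and 1966 in *Cdk8fl/fl*/*Cdk19-/-*, and 4 of 10 Paneth cell markers fell and none rose. Their part in the members' values was not tested.

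Taken from *VillinCreERT2*, the change on losing both kinases was more negative for the receptors than the sum of the single losses, by 0.62 (0.07) for *Ephb2*, 0.73 (0.13) for *Ephb3*, 0.35 (0.08) for *Ephb4* and 0.96 (0.16) for *Epha2* on the log2 scale. The adjusted p of this interaction was 4.01e-07, 5.02e-05, 0.000613 and 5.1e-05. For *Efna1* the combined change lay 0.64 (0.10) above the sum (1.19e-05), and *Efnb1* (-0.02, 0.899) and *Efnb2* (-0.08, 0.463) did not pass. By this contrast 5 of 7 members changed, beside 43.1% of all genes, and 4 were DEGs, beside 19.6%. It takes CDK8iIEC-KO from *VillinCreERT2* too and *Cdk8fl/fl*/*Cdk19-/-* from C57BL/6. *VillinCreERT2* therefore cancels, and C57BL/6 is the only control line left in it. With the combined loss taken from C57BL/6 instead, C57BL/6 cancels and *VillinCreERT2* is the only control line left. In this alternative, chosen after the data were seen, *Ephb2* (-0.72), *Ephb3* (-0.85) and *Ephb4* (-0.40) still passed, with adjusted p = 2.22e-08, 5.07e-06 and 0.000144. *Epha2* (-0.26, 0.183) then lost its call, *Efna1* lost it and turned in sign (-0.20, 0.118), and *Efnb2* lay 0.52 above the sum (1.52e-05). This left 2 DEGs, *Ephb2* and *Ephb3*, so for *Epha2*, *Efnb2* and *Efna1* the interaction depends on the control line. Without replicate 3 of C57BL/6 or replicate 2 of CDK8iIEC-KO *Ephb2* came under the fold cutoff (-0.58 and -0.57), as did *Efna1* (0.58) without the latter.

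In the time course the response to 4-OHT differed between day 3 and the later days. At day 3 after 4-OHT, *Ephb2*, *Ephb3* and *Epha2* rose and all 3 ligands fell. By day 7 and day 10 the EphB receptors had fallen and *Efnb1* and *Efnb2* had risen. *Ephb4* alone fell at each of the 4 days.

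At day 3 *Epha2* read 36.7, 37.8 and 37.8 CPM with EtOH and 90.1, 87.9 and 75.6 with 4-OHT, 2.26-fold higher (log2 fold change 1.17 (0.09), adjusted p = 6.12e-11). *Ephb3* rose 1.62-fold, from 57.9, 65.2 and 61.7 to 105, 100.2 and 93.7 CPM (0.70 (0.09), 3.52e-07). *Ephb2* went from 245, 245 and 239 to 289, 307 and 291 CPM (0.28 (0.05), 7.94e-05). In all 3 the libraries with 4-OHT lay above those with EtOH. *Ephb4* went the other way, from 231, 205 and 204 to 172, 160.2 and 165 CPM (-0.37 (0.06), 1.15e-05).

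Of the ligands at day 3, *Efna1* fell from 169, 163 and 155 to 98.3, 103 and 89.9 CPM (-0.74 (0.07), adjusted p = 1.9e-09). *Efnb2* fell from 172, 153 and 177 to 105, 107 and 108 CPM (-0.65 (0.12), 0.000285), and *Efnb1* from 247, 232 and 235 to 176, 182 and 169.5 CPM (-0.44 (0.07), 1.27e-05). No library with 4-OHT reached the lowest EtOH library of any ligand. All 7 members changed at day 3, beside 34.4% of all genes, and 4 of 7 were DEGs (*Epha2*, *Ephb3*, *Efnb2* and *Efna1*), beside 12.4%. Libraries of the groups did not overlap for any member, beside 51.2% of genes.

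Day 5 left 2 of 7 members changed, beside 38.3% of genes, and 0 of 7 as DEGs by edgeR, beside 13.2%. *Ephb2* had dropped to 231, 229 and 225 CPM, against 300.5, 314 and 306 with EtOH (-0.43 (0.05), adjusted p = 3.18e-07). *Ephb4* read 153, 152 and 161 against 204, 202 and 193 CPM (-0.36 (0.06), 2.11e-05). *Ephb3*, so clearly higher 2 days before, was level with EtOH (-0.01, 0.963), and *Epha2* stood at 34.1, 38.6 and 32.0 against 42.3, 37.7 and 41.5 CPM (-0.21 (0.10), 0.0842). Without replicate 2 of either group *Epha2* passed the threshold, with adjusted p = 0.0310 and 0.0476. The ligands differed by 0.06 to 0.16 with adjusted p of 0.268 to 0.530.

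At day 7, 6 of 7 members changed, beside 45.2% of genes. *Ephb3* was the one DEG, beside 18.3%, at 36.0, 38.9 and 50.6 CPM against 62.5, 61.3 and 70.4 (-0.63 (0.09), adjusted p = 1.81e-06). Without replicate 1 of 4-OHT or replicate 3 of EtOH it came to -0.54 and -0.57, under the fold cutoff. *Ephb4* fell by 0.49 (0.06) and *Ephb2* by 0.26 (0.05), while *Epha2* did not differ detectably (-0.08, 0.552). Every ligand was higher with 4-OHT at this day. *Efnb1* rose from 231, 211 and 206 to 308, 306 and 277 CPM (0.46 (0.07), 3.78e-06), *Efnb2* from 219, 210.4 and 171 to 303, 266 and 224 (0.40 (0.12), 0.00957) and *Efna1* from 126, 113 and 117 to 145, 150.4 and 147 (0.32 (0.07), 0.000490). *Efnb2* lost its call without replicate 1 of 4-OHT or replicate 3 of EtOH (adjusted p = 0.0789 and 0.0632).

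Day 10 held the lowest *Ephb2* of the time course, 144, 138 and 143 CPM with 4-OHT against 267, 271 and 277 with EtOH, 1.92-fold lower (-0.94 (0.05), adjusted p = 2.45e-14). *Ephb4* fell from 177, 172 and 179 to 113, 115 and 118 CPM (-0.61 (0.06), 1.57e-09). *Epha2* fell from 36.1, 31.8 and 37.3 to 24.0, 25.1 and 19.0 CPM (-0.63 (0.10), 7.34e-06). *Ephb3* fell by 0.58 (0.09), from 80.5, 77.2 and 76.3 to 50.9, 52.7 and 53.2 CPM, just under the fold cutoff. All 4 receptors were thus lower, with no overlap between the arms. *Efnb2* stood at 187, 149.5 and 157 CPM with EtOH and 268, 223 and 229.8 with 4-OHT (0.54 (0.12), 0.000955) and *Efnb1* rose by 0.25 (0.07) with adjusted p = 0.00470, whereas *Efna1* was 0.10 higher (0.255). In all, 6 of 7 changed, beside 44.3% of genes, 3 were DEGs, beside 15.8%, and 6 did not overlap, beside 53.2%. *Epha2* was no DEG without replicate 3 of either arm (-0.52 and -0.58).

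The difference between days was tested as an interaction of treatment with day. The response at day 10 minus that at day 3 was -1.80 (0.14) for *Epha2*, -1.27 (0.13) for *Ephb3* and -1.22 (0.07) for *Ephb2*, and 1.19 (0.17) for *Efnb2*, 0.84 (0.10) for *Efna1* and 0.69 (0.10) for *Efnb1*. All 7 changed by this contrast, beside 45.1% of genes, and these 6 were DEGs, beside 26.3%, with adjusted p from 9.74e-14 (*Ephb2*) to 8.9e-06 (*Efnb2*). *Ephb4* differed least (-0.25 (0.08), 0.0167, and 0.0501 without replicate 1 of 4-OHT at day 3). The response at day 5 minus that at day 3 was -1.39 (0.13) for *Epha2*, -0.71 (0.07) for *Ephb2*, -0.70 (0.13) for *Ephb3*, 0.81 (0.17) for *Efnb2* and 0.80 (0.10) for *Efna1*, 5 DEGs, beside 20.2% of genes. In all 6 changed over these days, beside 36.8%, *Efnb1* by 0.54 (0.10), and *Ephb4* by 0.01 with adjusted p = 0.963. From day 7 to day 10 the response went down further in *Ephb2* (-0.68 (0.07), 5.38e-07) and *Epha2* (-0.55 (0.14), 0.00647), 2 of 7 members beside 16.8% of genes, the former a DEG, beside 6.41%. The other 5 members did not pass (0.155 to 0.819).

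Organoids with EtOH moved too, and this is the ground on which the responses stand. The column names of the time course change form after day 5 and again at day 10, alike in both arms. Between these days, day and naming scheme cannot be told apart, and this limit holds for the contrasts between days as well. *Efna1* went down with every collection, from 162 CPM at day 3 over 131 and 118 to 72.7 at day 10 (means of 3). *Efnb1* stood at 238 and 240.4 CPM at days 3 and 5 and then at 216 and 124. Between days 3 and 10 these were falls of 1.16 (0.07) and 0.94 (0.07) on the log2 scale, with adjusted p = 5.26e-14 and 2.86e-12, both DEGs, beside 38.4% of genes. In all 5 of 7 changed, beside 67.2%. *Ephb3* rose by 0.34 (0.09) and *Ephb2* by 0.16 (0.05), while *Ephb4* fell by 0.28 (0.06), beside *Zan* with -1.43 (adjusted p = 9.63e-12). The adjusted p of the 3 receptors was 0.00139, 0.00729 (0.0501 without replicate 3 of EtOH at day 3) and 0.000126, and *Ephb2* did not pass with a minimum of 10 counts (0.175) or upper quartile normalization (0.184). *Epha2* (-0.10, 0.390) and *Efnb2* (-0.02, 0.892) differed less than the test could show.

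**Figure D2:**
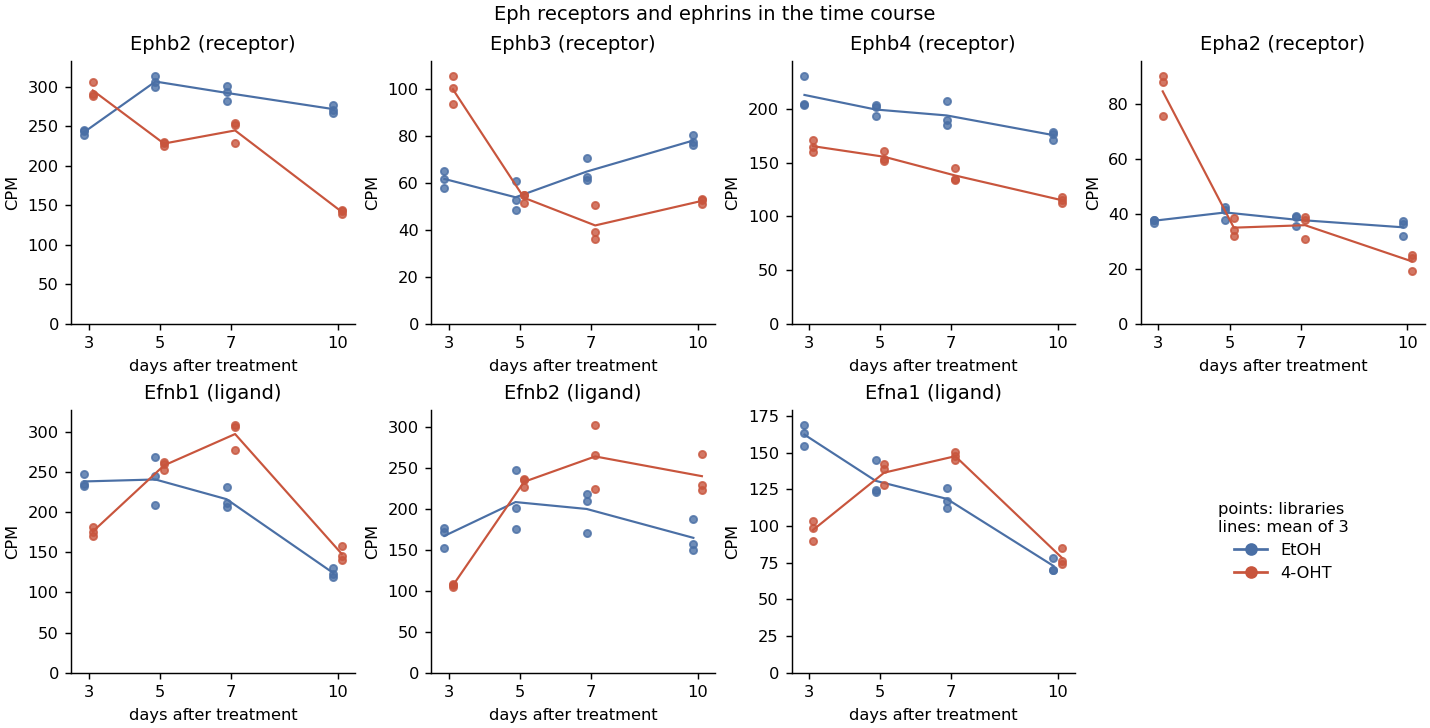
Level in CPM (y axis) of each member at 3, 5, 7 and 10 days (x axis), with points for libraries and lines through the means of 3. The 4-OHT line of *Ephb2*, *Ephb3* and *Epha2* starts above the EtOH line at day 3 and ends below it at day 10, the lines of *Efnb1* and *Efnb2* cross the other way, and *Ephb4* is lower with 4-OHT throughout.

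In *Wnt3*-CM, a medium in which Wnt ligand comes from outside the organoid, 4-OHT lowered *Ephb2* and, by far the most, *Epha2*, but raised *Ephb3*. *Epha2* read 161, 172 and 157 CPM with EtOH and 59.8, 51.9 and 52.6 with 4-OHT, 2.98-fold lower (-1.58 (0.07), adjusted p = 1.61e-13). Its EtOH level of 163 CPM compares with 35.1 CPM in EtOH organoids at day 10 of the time course, a difference between separate tables that was not tested. *Ephb2* went from 273, 297 and 288 to 200.5, 215 and 195 CPM (-0.49 (0.07), 2.86e-06). *Ephb3* went up from 32.3, 32.1 and 33.1 to 38.4, 45.9 and 42.5 CPM (0.38 (0.08), 0.000446), and *Ephb4* did not differ detectably (0.05, 0.521). Each of the changed receptors had arms that did not overlap.

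The ligands did not rise in *Wnt3*-CM. *Efnb2* fell from 317, 288 and 280.3 to 251, 219 and 215 CPM (-0.37 (0.07), adjusted p = 0.000245), *Efna1* from 76.7, 89.3 and 92.6 to 71.8, 68.5 and 74.0 CPM (-0.27 (0.07), 0.00481), and *Efnb1* was 0.10 lower (0.216). The call of *Efna1* was lost without replicate 3 of EtOH (0.0509). In all 5 of 7 members changed, beside 48.2% of genes, 1 was a DEG, beside 16.9%, and 5 did not overlap between the arms, beside 56.3%.

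Set against the response at day 10 without *Wnt3*-CM, 7 of 7 members responded otherwise, beside 29.0% of all genes, and 4 of 7 were DEGs by this interaction, beside 13.3%. The response was higher by 0.96 (0.10) in *Ephb3*, 0.66 (0.08) in *Ephb4* and 0.45 (0.08) in *Ephb2* and lower by 0.95 (0.13) in *Epha2*. The response of each ligand was lower in *Wnt3*-CM, by 0.92 (0.13) in *Efnb2*, 0.38 (0.11) in *Efna1* and 0.36 (0.09) in *Efnb1*. The adjusted p ran from 4.98e-07 (*Ephb3*) to 0.0113 (*Efna1*). *Zan* also responded higher in *Wnt3*-CM, by 1.05 (0.000394), and its part in the value of *Ephb4* was not tested. Both media used the same line, but their libraries stand in separate tables, and medium and table cannot be told apart.

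In *Cdk19D173A/-* organoids, where 4-OHT leaves only kinase-dead CDK19, the EphB receptors fell and *Efnb2* rose. The columns of these libraries name no genotype and were assigned by elimination. *Ephb2* went from 133, 134 and 147 to 79.5, 77.2 and 73.5 CPM, 1.80-fold lower (-0.85 (0.07), adjusted p = 1.58e-05). *Ephb3* went from 28.7, 28.7 and 32.5 to 18.3, 16.03 and 16.04 CPM, 1.78-fold lower (-0.83 (0.09), 0.000136), and *Ephb4* from 137, 134 and 137 to 97.4, 101 and 96.8 CPM (-0.47 (0.06), 0.000294). No 4-OHT library reached an EtOH library in any of these 3 receptors. *Efnb2* rose from 300.3, 264 and 269.9 to 379.8, 369.6 and 363 CPM (0.42 (0.07), 0.00130). *Epha2* (-0.16 (0.09), 0.204), *Efnb1* (0.14 (0.06), 0.121) and *Efna1* (-0.02, 0.929) did not pass. Thus 4 of 7 changed, beside 27.8% of genes, 2 were DEGs, beside 12.3%, and 6 did not overlap, beside 43.2%.

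The response in *Cdk19D173A/-* organoids was set against that of the time course at the same day 7. It was lower by 0.59 (0.09) for *Ephb2* (adjusted p = 0.000424) and by 0.32 (0.10) for *Efnb1* (0.0301), and for the other 5 members the difference did not pass (0.0826 to 0.982). So 2 of 7 members differed, beside 20.1% of genes, and *Ephb2* was a DEG, beside 11.1%. It came just under the fold cutoff, at -0.55 to -0.58, without any 1 of replicate 3 of either *Cdk19D173A/-* arm, replicates 2 and 3 of 4-OHT at day 7 or replicate 2 of EtOH at day 7. *Efnb1* lost its call without any 1 of 7 libraries, namely replicate 2 of 4-OHT and replicates 1 and 3 of EtOH in *Cdk19D173A/-* and replicates 1 and 2 of 4-OHT and 2 and 3 of EtOH in the time course, with adjusted p up to 0.0803. *Efna1* (-0.34, 0.0826) passed without replicate 3 of 4-OHT in *Cdk19D173A/-* (0.0397) and with no filter (0.0268). These lines differ and stand in separate tables, so that allele, line and table cannot be told apart.

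In IECs 14 days after tamoxifen, 0 of 7 members passed edgeR's test, beside 1.54% of all genes. At an unadjusted p under 0.05 the count was 2 of 7, *Ephb2* and *Ephb4*, beside 19.9% of genes. *Ephb4* had 67.8, 76.4 and 79.8 CPM in *VillinCreERT2* and 31.3, 50.0 and 36.7 in CDK8iIEC-KO/*Cdk19-/-* mice (-0.93 (0.18), adjusted p = 0.0611). *Ephb2* had 64.1, 59.0 and 73.0 against 24.8, 48.8 and 29.5 CPM (-0.93 (0.25), 0.131). All mice lacking both kinases were below all controls in these genes, the second of them being the nearest to the controls. *Ephb3* read 12.2, 10.4 and 14.3 against 7.15, 11.6 and 4.86 CPM, with overlap (-0.64 (0.31), 0.305).

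The ligands and *Epha2* differed by at most 0.24 on the log2 scale between the genotypes of IECs, and none of them passed. *Epha2* read 122, 80.4 and 92.5 against 100.3, 114 and 105 CPM (0.11 (0.16), adjusted p = 0.711). *Efnb1* had 133, 141 and 138 against 113, 129 and 133 CPM (-0.13 (0.10), 0.458), *Efnb2* 115, 91.8 and 98.3 against 73.2, 90.6 and 93.8 (-0.24 (0.13), 0.354) and *Efna1* 49.7, 49.5 and 48.7 against 55.8, 43.4 and 52.0 (0.03 (0.11), 0.892). Together with *Ephb2* and *Ephb4*, *Efnb1* made 3 of 7 members without overlap between the genotypes, beside 26.8% of genes. The count of calls changed with the tool and the library. DESeq2 called *Ephb2* (adjusted p = 0.00692) and *Ephb4*, a filter of at least 10 counts or none called *Ephb4* alone, and limma-voom called none. Without replicate 2 of the knockout *Ephb2* was -1.27 (0.0233) and *Ephb4* -1.14 (0.0227), and without replicate 2 of *VillinCreERT2* *Ephb4* was -0.90 (0.0341).

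In IECs the sums of immune and endothelium markers were higher in each knockout mouse than in any control, while those of mesenchyme markers overlapped. No gene tested on these lists passed edgeR's test (adjusted p of 0.121 or more). Immune markers summed to 164, 891 and 209 CPM in *VillinCreERT2* and 2079, 1182 and 1079 in CDK8iIEC-KO/*Cdk19-/-* mice. Mesenchyme markers summed to 14.1, 901 and 57.6 against 996, 615 and 471 CPM and endothelium markers, of interest for *Ephb4* and *Efnb2*, to 3.68, 9.29 and 5.67 against 23.5, 15.1 and 13.3 CPM. Epithelium markers summed to 14276, 13507 and 13924 CPM against 12962, 11753 and 13285, lower in each knockout mouse than in any control. Paneth cell markers summed to 7098, 4250 and 5572 against 1215, 2540 and 1166 CPM. Those of the crypt base columnar cells, the stem cells of the crypt, summed to 1536, 1534 and 1984 against 786, 1245 and 695 CPM. The knockout mouse with the highest *Ephb2*, *Ephb3* and *Ephb4* was thus also the one with the most Paneth and stem cell markers. The part of these cells in the result was not tested.

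**Figure D3:**
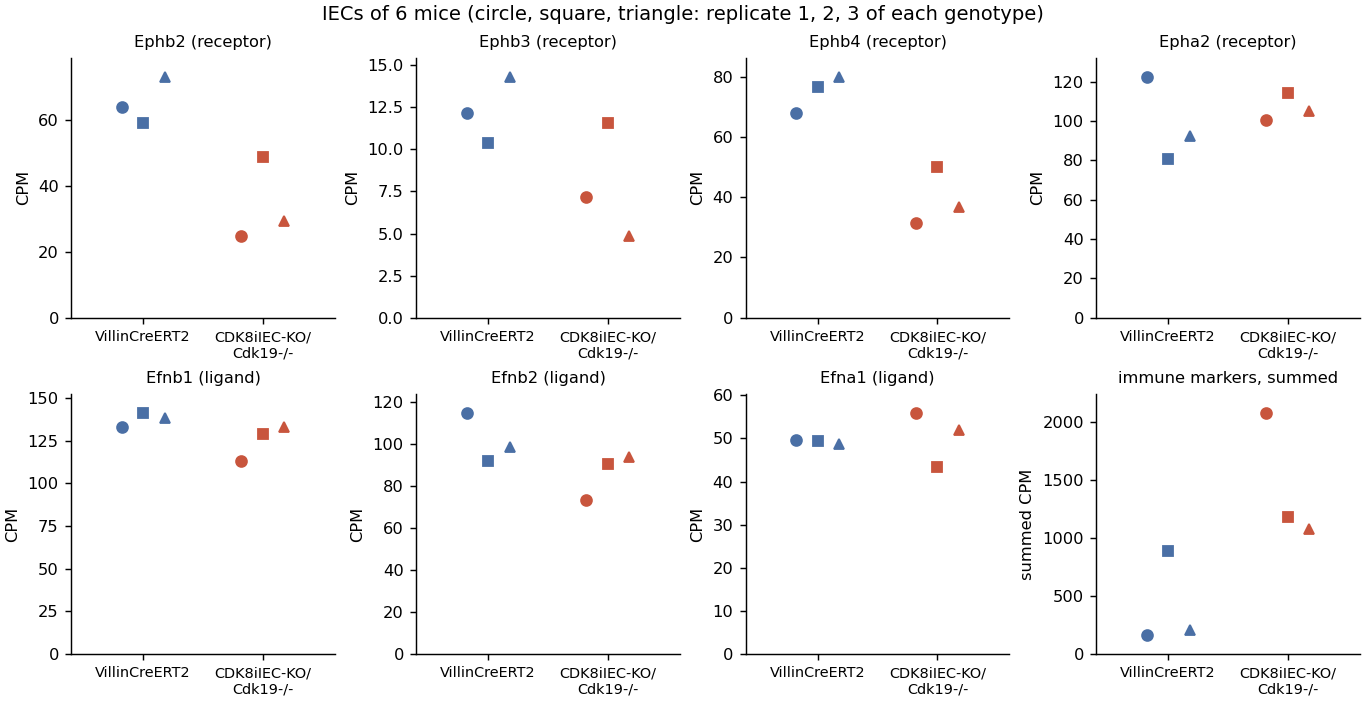
Level in CPM (y axis) of each member in the IECs of 6 mice, with a symbol per replicate number, and the summed CPM of the immune markers in the last panel. *Ephb2* and *Ephb4* are lower in each CDK8iIEC-KO/*Cdk19-/-* mouse than in any *VillinCreERT2* mouse, *Ephb3* overlaps, and the immune markers are higher in the knockout mice.

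*Ephb2* fell with 4-OHT in every setting except day 3 and fell with the combined loss against each organoid control. *Ephb3* fell in the same places but for day 5, where it was level, and *Wnt3*-CM, where it rose. Of the ligands, *Efnb2* rose with 4-OHT at days 7 and 10 and in *Cdk19D173A/-* organoids and fell at day 3 and in *Wnt3*-CM. *Efnb1* rose at days 7 and 10 only among the 4-OHT comparisons, and *Efna1* at day 7 only.

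**Figure D4:**
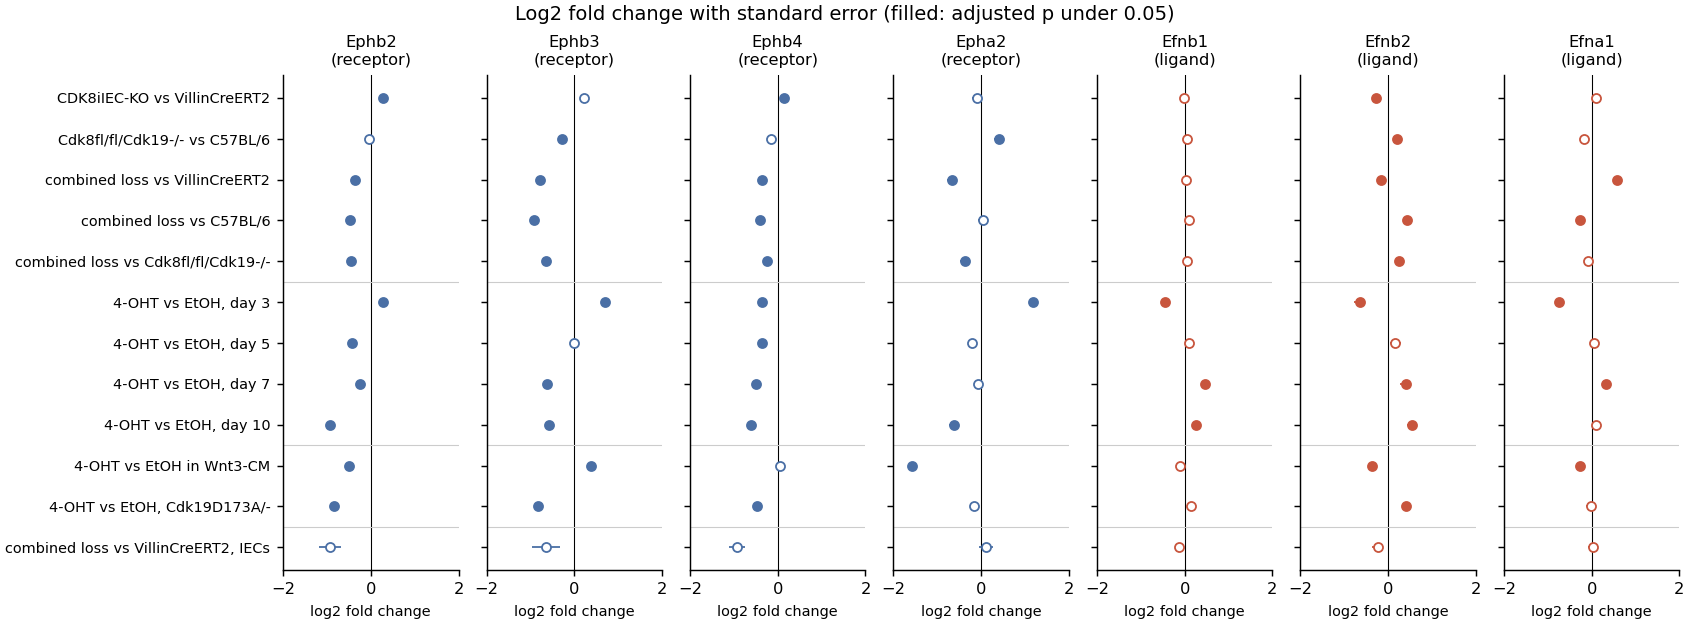
Log2 fold change (x axis) of each member in 12 comparisons, with the standard error as a bar and filled points where the adjusted p is under 0.05. The EphB receptors lie left of 0 in the combined loss and from day 5 on in the time course, with *Ephb3* at 0 on day 5, and *Epha2* reaches 1.17 at day 3 and -1.58 in *Wnt3*-CM.

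To set crypt receptors against villus ligands in each library, the mean log2 CPM of the 4 receptors minus that of the 3 ligands was taken, as a description with no test. It was -1.18 in *VillinCreERT2*, -1.34 in C57BL/6, -0.99 in CDK8iIEC-KO and -1.38 in *Cdk8fl/fl*/*Cdk19-/-* organoids, and -1.87 without both kinases. The last group lay below all libraries of the others, by 0.69 and 0.54 on the log2 scale from the control lines. With EtOH the value went up over the time course, from -0.83 over -0.79 and -0.66 to -0.09, whereas with 4-OHT it went from 0.22 at day 3 to -1.16, -1.42 and -1.08. At day 3 the 4-OHT libraries were thus 1.05 higher than EtOH, and at day 10 they were 0.99 lower. In *Cdk19D173A/-* organoids it went from -1.45 to -2.21. In *Wnt3*-CM it differed by only -0.16 (-0.50 to -0.67), with *Ephb3* up and *Ephb2*, *Epha2*, *Efnb2* and *Efna1* down. From *Ephb2* and *Ephb3* minus *Efnb1* and *Efnb2* alone, the difference in *Wnt3*-CM turned to 0.18, and that of C57BL/6 from *VillinCreERT2* from -0.15 to 0.46. IECs had -0.85 and -1.36 with overlapping libraries.

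**Figure D5:**
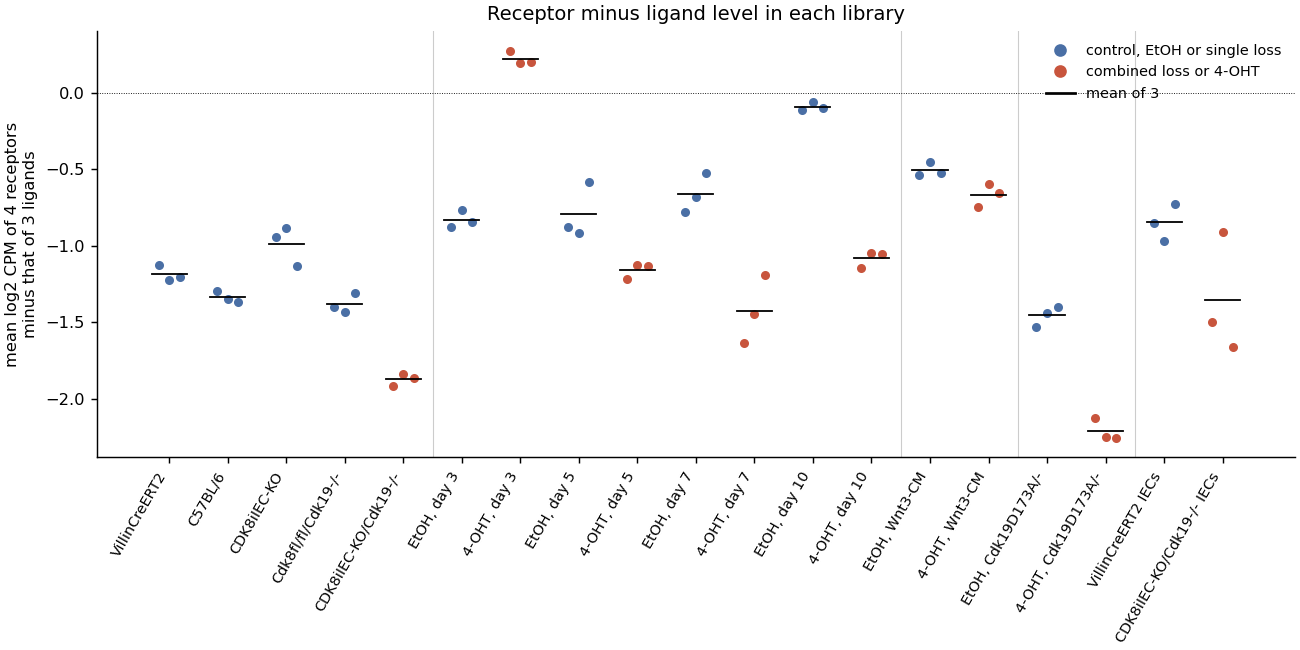
Mean log2 CPM of the 4 receptors minus that of the 3 ligands (y axis) in every library of the 19 groups, with the mean of 3 as a line. The group with combined loss and, from day 5 on, the 4-OHT arms lie below their controls, by 0.16 only in *Wnt3*-CM, while 4-OHT is 1.05 higher at day 3, CDK8iIEC-KO is 0.20 higher than *VillinCreERT2* with overlap, and the IEC genotypes overlap.

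Of the other 15 genes of the family, 7 could be tested in most fits, and the rest were at or near 0. The count in the combined loss was 1 up and 2 down against *VillinCreERT2* and 1 up and 4 down against C57BL/6. *Epha4*, a receptor that binds ephrins of both classes, fell in both, by 0.96 (0.17) and 0.81 (0.18), at 1.47 to 27.7 CPM over all libraries. It rose at day 3 of the time course (adjusted p = 3.4e-09), as *Epha2* and *Ephb3* did, and was lower at day 10 by 0.40 (0.13). *Efna3*, a further ligand of EphA receptors, fell at day 10 by 1.58 (0.20) and in *Wnt3*-CM by 0.80 (0.12). *Epha7*, at most 3.92 CPM in any library, had a log2 fold change of -3.21 (0.36) against C57BL/6 and of -0.23 (adjusted p = 0.724) against *VillinCreERT2*. Among the 7 tested at each day the counts were 1 up and 2 down at day 3, 3 and 2 at day 5, 1 and 2 at day 7 and 1 and 3 at day 10. They were 1 up and 2 down of 6 in *Wnt3*-CM, 1 and 3 of 7 in *Cdk19D173A/-* organoids and 0 of 8 in IECs. *Epha1*, the most abundant of them at 40.9 to 176 CPM, is the gene that rose in the combined loss (0.24 (0.06) and 0.48 (0.06)), at day 10 (0.57 (0.09)) and in *Wnt3*-CM (0.31 (0.07)), and it fell at day 3 by 0.57 (0.09).

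Genes that act with Eph receptors inside the cell, 25 of 27 tested, moved both ways. In the combined loss 4 rose and 14 fell against *VillinCreERT2* (median -0.26, with 0.00 over all genes) but 9 rose and 4 fell against C57BL/6 (median 0.08, with -0.01 over all genes), so their balance hung on the control line. *Tiam1*, an exchange factor for Rac that ephrin-B and EphA2 signalling engage, fell by 1.07 (0.09) and 0.93 (0.09), at day 10 by 1.26 (0.08) and in *Cdk19D173A/-* organoids by 0.76 (0.11). *Abl2*, a cytoplasmic tyrosine kinase, fell by 0.88 (0.09) against *VillinCreERT2* and by 0.30 (0.09) against C57BL/6. *Vav3*, another exchange factor, rose at day 3 (0.86 (0.12)) and in *Cdk19D173A/-* organoids (1.23 (0.14)). Counts up and down were 4 and 3 at day 3, 4 and 4 at day 5, 8 and 3 at day 7, 2 and 9 at day 10, 2 and 12 of 24 in *Wnt3*-CM, 2 and 1 in *Cdk19D173A/-* organoids and 0 and 0 in IECs.

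Wnt target genes of the crypt went the way of *Ephb2* and *Ephb3* on most days. Against *VillinCreERT2* 10 of 11 tested fell in the combined loss (median log2 fold change -0.73), and against C57BL/6 7 fell and 1 rose (-0.90). At day 3 10 of 14 rose and none fell (0.68). At days 5, 7 and 10 none rose and 11, 12 and 12 of 14 fell (medians -0.70, -0.95 and -1.00). In *Wnt3*-CM 9 of 13 fell, in *Cdk19D173A/-* organoids 8 of 11 fell and 1 rose, and in IECs 0 of 14 passed with a median of -0.61. The median over all genes was within 0.03 of 0 in each of these comparisons.

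Markers of the cells that carry these receptors and ligands moved in many of the same libraries. Of 10 Paneth cell markers 7 fell against *VillinCreERT2* and 10 against C57BL/6 in the combined loss, 1 rose and none fell at day 3, and 9 fell at day 5, 10 at day 7, 10 at day 10, 10 in *Wnt3*-CM and 4 in IECs. In *Cdk19D173A/-* organoids 8 fell, but *Lyz1*, the lysozyme of Paneth cells, rose from 459 to 847 CPM (0.89 (0.09), adjusted p = 0.000118). For crypt base columnar cells 6 of 10 and 7 of 10 fell in the combined loss with 1 up in each, 5 of 9 rose and 1 fell at day 3, 6 of 9 fell and 1 rose at day 5, 7 of 9 fell at day 7 with none up, and 9 of 9 fell at day 10. In *Wnt3*-CM, where *Ephb2* fell, 2 of 9 rose (*Smoc2* and *Clca3b*) and 2 fell (*Msi1* and *Soat1*), and in *Cdk19D173A/-* organoids 7 of 10 fell and none rose. Markers of villus enterocytes, where ephrin-B ligands are at home, fell in 8 of 11 at day 3. Of the same 11, 5 fell and 2 rose at day 5, 3 rose and 1 fell at day 7, and 5 rose and 1 fell at day 10. In the combined loss 7 rose and 3 fell against *VillinCreERT2* and 6 rose and 1 fell against C57BL/6. In *Wnt3*-CM 6 of 12 rose and 5 fell, and in *Cdk19D173A/-* organoids 6 of 11 rose and none fell. Proliferation genes rose in 5 of 10 at day 3 with none down, fell in 10 of 10 at days 5 and 7 and in 8 of 10 at day 10, and rose in 7 of 10 in *Wnt3*-CM. In the combined loss 6 of 10 fell against *VillinCreERT2* and 10 against C57BL/6, in *Cdk19D173A/-* organoids 9 fell, and in IECs 1 fell, with none up in any of these. The part of the cell types in the members' values was not tested.

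Across the 24 libraries of the time course, which share 1 line and 1 table, members of like role varied together in part. Pearson's r of log2 CPM was 0.94 for *Efna1* and *Efnb1*, but only 0.42 for *Efnb2* and *Efnb1* and 0.24 for *Efna1* and *Efnb2*. Among receptors it ran from 0.33 (*Ephb4* and *Ephb3*) to 0.76 (*Ephb4* and *Ephb2*), with 0.40 for *Ephb3* and *Ephb2*. The receptor *Ephb4* and the ligand *Efna1* also had 0.40. *Efnb2* ran against *Ephb3* (-0.93) and *Epha2* (-0.77). Among 11597 genes, those most like *Ephb2* were *St3gal1* (0.96), *Rad54l2* (0.94) and *Thrap3* (0.94). *Ephb3* was followed most closely by *Ckap2* (0.94), *Esam* (0.94) and *Spag5* (0.93), of which *Ckap2* and *Spag5* belong to the mitotic spindle. For *Ephb4* they were *Bhlha15* (0.97), *Hpd* (0.96) and *Spdef* (0.95), the first and last being transcription factors of secretory cells. *Qsox1* (0.95), *Cdc42ep1* (0.94) and *Sh3pxd2b* (0.94) came closest to *Epha2*. The nearest to the ligands were *Irf2* (0.98), *Plpp6* (0.98) and *Pdk2* (0.98) for *Efnb1*, *Crat* (0.98), *Pxk* (0.98) and *Adipor2* (0.97) for *Efnb2*, and *B3gat3* (0.97), *Pdk2* (0.96) and *Sh3rf2* (0.96) for *Efna1*. With 8 groups behind the 24 points, these values describe the course of the group means and carry no test.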

How the data were processed

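The libraries were made from poly-A RNA and read as paired ends of 100 bp. The authors deposited raw counts of reads per gene, without normalization, one column per library. The submitters' processing notes name STAR 2.5.2, featureCounts of Subread 1.6.3 and the build mm10, and strandedness is not given in the sources used here. *Wnt3*-CM columns were assigned by group name and those of *Cdk19D173A/-* organoids by elimination, and 6 IEC columns of a kinase-dead genotype were not used, since their letters could not be tied to a genotype. Of 54752 gene identifiers, 53861 occur in GENCODE vM21.

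Tables were fitted separately in R 4.3.3 with edgeR 4.0.16 (filterByExpr, TMM, robust quasi-likelihood F test), with 15 libraries for the day 7 groups, 24 for the time course and 6 for each other pair. Joint fits of 12 libraries set *Wnt3*-CM against day 10 and *Cdk19D173A/-* against day 7. Benjamini-Hochberg adjustment ran over all genes tested. A standard error is the log2 fold change over the square root of its F value. CPM use TMM-scaled library sizes. Log2 CPM for the receptor minus ligand level and for correlations used a prior count of 2. No counting intervals were computed.

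Of each list up to 2 called genes with the largest rise and 2 with the largest fall in a comparison could be named, and for likeness the 3 genes with the highest r among genes averaging at least 50 counts. *Epha1* was named after its values were seen. *Zan* was named because it overlaps *Ephb4*. The members and lists were chosen with earlier results of these data known. Replicates of a group differed by more than sampling noise, and each counted as 1 sample. This spread does not show that triplicates of organoids came from separate cultures. Deviations of libraries of equal replicate number correlated by at most 0.23 in organoids (day 10) and by -0.41 to 0.21 in IECs. The lowest correlation was under 0.1 in each comparison, and the replicate number stayed an alternative block. Other alternatives were no filter, a minimum of 10 counts per library, normalization by the upper quartile, DESeq2 1.42.0, limma-voom (limma 3.58.1), a fit of only the groups compared, both control lines averaged, and each library left out in turn. Chosen after the data were seen were the combined loss taken from C57BL/6 in the interaction of the single losses, and a block on the number ending the column names of *Wnt3*-CM and *Cdk19D173A/-* organoids. The methods were tested on simulated data.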

Additional observations from a re-analysis of the deposited data

Results flagged for a closer look

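The responses of several members differed between conditions by a test of the difference itself, an edgeR interaction contrast with an adjusted p under 0.05 and a difference over 1.5-fold. The combined loss minus the sum of the single losses gave -0.62 for *Ephb2*, -0.73 for *Ephb3*, -0.96 for *Epha2* and 0.64 for *Efna1*. With the combined loss taken from C57BL/6 the values of *Epha2* (-0.26, adjusted p = 0.183) and *Efna1* (-0.20, 0.118) did not pass. The response to 4-OHT at day 10 minus that at day 3 gave -1.22 for *Ephb2*, -1.27 for *Ephb3*, -1.80 for *Epha2*, 0.69 for *Efnb1*, 1.19 for *Efnb2* and 0.84 for *Efna1*. At day 5 minus day 3 the values were -0.71 for *Ephb2*, -0.70 for *Ephb3*, -1.39 for *Epha2*, 0.81 for *Efnb2* and 0.80 for *Efna1*, and at day 10 minus day 7 the value for *Ephb2* was -0.68. The response in *Wnt3*-CM minus that at day 10 gave 0.96 for *Ephb3*, 0.66 for *Ephb4*, -0.95 for *Epha2* and -0.92 for *Efnb2*. The response of *Cdk19D173A/-* organoids minus that at day 7 gave -0.59 for *Ephb2*. The contrasts of the time course share libraries of days 3 and 10, so their values are not independent of each other.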

How the results depend on the processing

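Direction changed for 3 values, with adjusted p under 0.05 on at least 1 side. With both control lines averaged *Efnb2* in the combined loss was 0.14. With the combined loss taken from C57BL/6 the interaction of the single losses was -0.20 for *Efna1* and 0.52 for *Efnb2*, and 2 members were DEGs instead of 4. Over all members, comparisons and alternatives, 1969 values kept their call, 42 lost it, 23 gained it and 3 reversed. The numbers of members called as DEGs held within 1.5 times under the alternatives, except as follows. In IECs, DESeq2 called 2, and at least 10 counts in every library and no filter each called 1, where edgeR had called 0. With both control lines averaged, the combined loss had 1 DEG instead of 2. Leaving out 1 library gave 0 to 1 at day 7, 0 to 2 in IECs, 0 to 1 for the combined loss against *Cdk8fl/fl*/*Cdk19-/-*, 2 to 4 for the interaction of the single losses, 1 to 2 for day 10 minus day 7 and 0 to 1 for *Cdk19D173A/-* minus day 7. The receptor minus ligand level from *Ephb2* and *Ephb3* minus *Efnb1* and *Efnb2* only reversed for C57BL/6 minus *VillinCreERT2* (0.46) and for *Wnt3*-CM (0.18). It moved to -1.12 in *Cdk19D173A/-* organoids, -0.28 for *Cdk8fl/fl*/*Cdk19-/-* minus C57BL/6, 0.39 for CDK8iIEC-KO, -0.96, -0.68 and -0.50 for the combined loss minus C57BL/6, *Cdk8fl/fl*/*Cdk19-/-* and *VillinCreERT2*, and -1.16 at day 10. Here *Epha2*, *Ephb4* and *Efna1* are left out. The cause of the other moves was not tested.

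Over all genes the IEC comparison depended most on the settings, with 228 DEGs (43.0% higher) against 1103 without a filter (59.5% higher), 854 with DESeq2 (58.7% higher) and 8 with the replicate block (75.0% higher). At least 10 counts lowered the DEGs from 794 to 476 for loss of CDK19 and from 2040 to 1303 at day 5. With each IEC library left out in turn the count ran from 3 to 1566. The replicate block, an alternative in the day 7 organoids, the time course and the IECs, changed no member's call, and *Ephb4* in IECs was -0.95 with adjusted p = 0.0961. The *Wnt3*-CM and *Cdk19D173A/-* columns were matched to groups only, and the numbers ending their names were not tied to the labels' replicates. A replicate block on those numbers, chosen after the data were seen, changed no member's call in either comparison, and no block was fitted in the joint fits. With 3 libraries per group, differences within the spread between libraries were not detectable.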
